A study of Mus musculus with 21 samples.

Results

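The 10 genes described here act in the storage, translation and decay of maternal mRNA, and were followed through 12 oocyte and 9 granulosa cell libraries of mice. They are Zar1, Ybx2, Lsm14b and Patl2 for storage, Cpeb1, Paip1 and Pabpc1l for translation, and Btg4, Cnot7 and Zfp36l2 for decay, which makes 10 of the 55335 gene identifiers in each library. They were selected on their FPKM in these same libraries, with the difference between oocytes of the Aged + LRP1high and Aged + LRP1low groups already known, so that difference is given below as a description with no test. A growing oocyte makes and stores large amounts of mRNA, and transcription is silent once it is fully grown, so later protein synthesis draws on the stored messages. Dormant messages carry short poly(A) tails and are held by RNA-binding proteins, cytoplasmic polyadenylation then activates chosen messages during meiotic maturation, and the CCR4-NOT deadenylase and its adaptors clear much of the store around fertilization.

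The study transplanted human umbilical cord mesenchymal stem cells (UC-MSCs) under the ovarian capsule of old female mice and asked how the cells sorted for high or low surface LRP1, a lipoprotein receptor, changed oocytes and granulosa cells. Young ICR mice were 6 to 8 weeks old and Aged mice were 18 months old. Aged + Unsorted, Aged + LRP1high and Aged + LRP1low mice were aged mice examined 3 weeks after receiving unsorted cells, LRP1high cells or LRP1low cells, and the labels list no cells for the Aged group and name no sham injection. Oocytes are called MII in the series description, while the methods of the study describe rupturing follicles of dissected ovaries and name no stage. The oocytes were freed of their zona pellucida with pronase. Granulosa cells came off the same cumulus complexes with hyaluronidase, so both cell types came from cumulus-oocyte complexes. There were 3 Young, 2 Aged, 2 Aged + Unsorted, 3 Aged + LRP1high and 2 Aged + LRP1low oocyte libraries, and 1, 2, 1, 3 and 2 granulosa cell libraries in the same order. The labels call the libraries biological replicates but do not say how many mice or cells went into each. Values are FPKM, the fragments of a gene scaled to its length and to the total of its library. The labels name poly(A) RNA, though the sources differ on the library method. Where RNA is selected by its poly(A) tail, the amount of an mRNA and the length of its tail cannot be told apart. In bulk samples fewer cells of a type and less RNA per cell cannot be told apart either.

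The promoters of the members are shown as a description, and no link between them and the members' values was tested. RefSeq windows of GRCm38.p6 were at hand for 8 members, 250 bases before each start, and are printed for 5 whose windows hold no annotated exon. For Paip1 1 of 2 such windows is printed. The other, at chr13:119428652-119428901, held no E-box and 4 GC boxes. The capitals mark the E-box, CANNTG, the letters read by basic helix-loop-helix factors such as FIGLA, a regulator of oocyte genes. The sequences run 5′ to 3′ on the strand of the gene, at chr9:51115751-51116000 (plus strand) for Btg4, chr7:81454759-81455008 (minus strand) for Cpeb1, chr2:180024737-180024986 (plus strand) for Lsm14b, chr2:164024974-164025223 (plus strand) for Pabpc1l and chr13:119428350-119428599 (plus strand) for Paip1.
Btg4: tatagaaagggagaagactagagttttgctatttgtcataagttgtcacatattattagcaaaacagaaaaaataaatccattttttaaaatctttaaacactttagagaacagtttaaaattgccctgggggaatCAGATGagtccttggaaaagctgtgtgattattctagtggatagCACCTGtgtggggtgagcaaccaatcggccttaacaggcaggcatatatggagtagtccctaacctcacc
Cpeb1: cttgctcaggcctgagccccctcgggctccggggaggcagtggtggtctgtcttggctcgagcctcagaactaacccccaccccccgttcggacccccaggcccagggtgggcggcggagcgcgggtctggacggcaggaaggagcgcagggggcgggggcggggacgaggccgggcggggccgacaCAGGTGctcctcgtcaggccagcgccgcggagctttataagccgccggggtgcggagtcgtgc
Lsm14b: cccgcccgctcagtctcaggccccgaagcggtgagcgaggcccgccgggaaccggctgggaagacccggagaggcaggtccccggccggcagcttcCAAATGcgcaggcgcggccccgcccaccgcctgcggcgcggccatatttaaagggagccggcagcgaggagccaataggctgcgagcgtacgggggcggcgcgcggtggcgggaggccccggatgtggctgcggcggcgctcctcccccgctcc
Pabpc1l: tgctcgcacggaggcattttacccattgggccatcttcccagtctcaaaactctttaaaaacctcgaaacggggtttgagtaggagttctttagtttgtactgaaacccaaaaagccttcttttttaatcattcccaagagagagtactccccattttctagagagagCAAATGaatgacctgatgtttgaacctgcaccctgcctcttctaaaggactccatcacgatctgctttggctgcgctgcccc
Paip1: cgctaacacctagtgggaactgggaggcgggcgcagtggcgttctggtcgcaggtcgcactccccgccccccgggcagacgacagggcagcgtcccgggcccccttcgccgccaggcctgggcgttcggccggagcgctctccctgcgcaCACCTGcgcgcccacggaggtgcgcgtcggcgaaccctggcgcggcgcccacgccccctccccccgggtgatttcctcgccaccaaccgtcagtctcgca
Btg4 held 2 E-boxes, which began 114 and 70 bases before its start, and its window was 38.0% G plus C. Cpeb1 held 1 E-box 63 bases before its start in a window of 74.0% G plus C, with a TATA box read from the other strand that began 30 bases before the start. Over the full windows and both strands, the 8 members have 10 windows, since Paip1 and Ybx2 have 2 starts each. An E-box stood in 8 of the 10, against 66.2% of all 32851 promoter windows of the same length. The GC box GGGCGG was present in 6 of 10 windows against 32.7% of all windows, CCAAT in 5 of 10 against 33.8%, and TATAAA in 1 of 10 against 12.4%. None held TAATTG, a sequence bound by homeobox factors of the NOBOX type, which 7.17% of all windows held. Cnot7 and Zfp36l2 had no window.

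Before the members' values, 5 libraries have to be named, because their oocyte markers went against their labels. The 10 oocyte marker genes, which include the zona pellucida genes, Gdf9 and Bmp15, had a median FPKM of 84.9 to 1001 in 8 oocyte libraries, but of 0.892 in Young 1, 11.6 in Aged 1, 5.02 in Aged + LRP1low 1 and 7.77 in Aged + LRP1low 2. In the opposite way, the granulosa library Aged + Unsorted 1 had a median of 800 for these markers, and its profile correlated with that of oocyte library Aged + Unsorted 2 at r = 0.968, the highest of 210 pairs of libraries. Granulosa and cumulus markers such as Fshr and Foxl2 were high in only part of the granulosa libraries, with a summed FPKM of 1874 in Young 1, 554 in Aged + LRP1high 3, 0.915 and 1.44 in the 2 Aged libraries, 5.70 in Aged + LRP1high 2 and 6.46 in Aged + LRP1low 2. The sum was 88.4 in Aged + LRP1low 1, 54.0 in Aged + LRP1high 1 and 22.7 in Aged + Unsorted 1. Luteal and thecal markers such as Star and Cyp11a1 summed to 4619 in granulosa library Aged + LRP1low 1, 1386 in Aged + LRP1high 1 and 1016 in Young 1. The libraries amounted to 0.278 to 3.40 gigabases of aligned sequence in oocytes and 0.335 to 1.49 in granulosa cells, and the Aged + LRP1low oocyte libraries were the shallowest of the oocytes at 0.515 and 0.278. No read counts were used, so counting errors are unknown. The main results are also given without the 5 libraries named for their oocyte markers, where both groups still had libraries. The granulosa libraries low in granulosa markers were kept throughout.

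**Figure D1:**
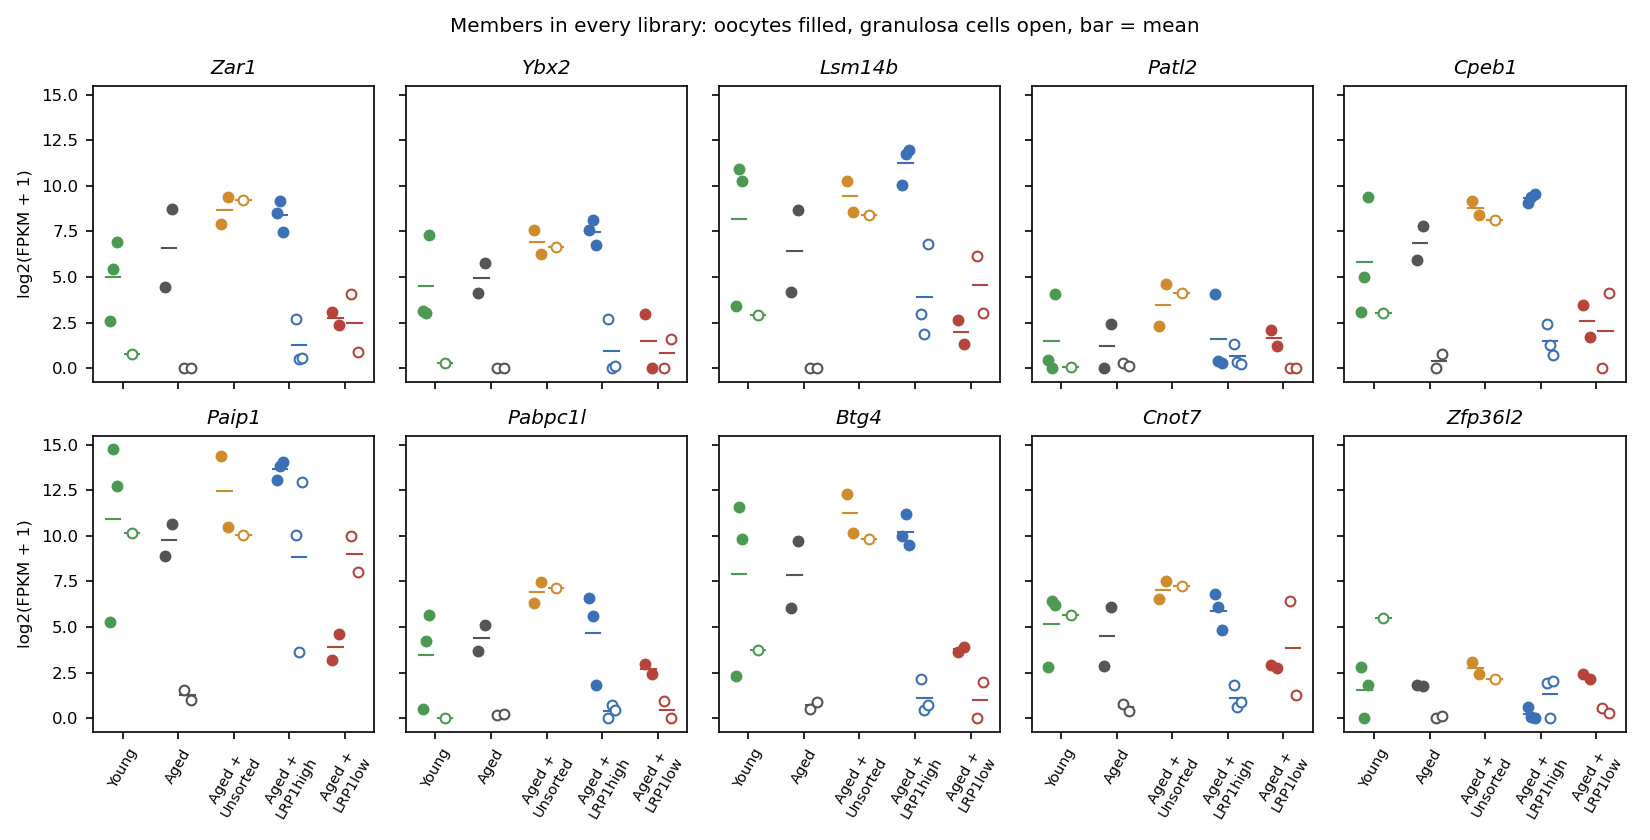
Each panel shows 1 member in all 21 libraries, with log2(FPKM + 1) on the vertical axis and the 5 groups on the horizontal axis. Filled points are oocyte and open points granulosa cell libraries, and bars are group means. Paip1 reaches the highest value of any member, an FPKM of 27238 in Young 2, and 7 of 10 members have their 3 Aged + LRP1high oocyte points above both Aged + LRP1low points.

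Among the storage genes, Zar1 (ENSMUSG00000063935.3, chr5:72576806-72581254, minus strand), which encodes an RNA-binding protein needed to keep maternal messages in the oocyte, had an FPKM of 5.11, 42.4 and 122 in the Young libraries, 20.8 and 422 in the Aged ones, 243 and 660 with unsorted cells, 361, 582 and 179 with LRP1high cells, and 7.64 and 4.10 with LRP1low cells. Ybx2 (ENSMUSG00000018554.13, chr11:69935796-69941605, plus strand), the germ cell Y-box protein that coats stored mRNA, stood at 7.89, 7.08 and 160 in the Young libraries, 16.2 and 54.3 in the Aged ones, 187 and 75.0 with unsorted cells, 187, 276 and 109 with LRP1high cells, and 6.73 and 0 with LRP1low cells. In both genes the Aged + Unsorted and Aged + LRP1high libraries were high together and the Aged + LRP1low libraries low, while Young and Aged each spread widely, with Young 1 and Aged 1 well below Young 3 and Aged 2. Lsm14b (ENSMUSG00000039108.14, chr2:180024987-180035465, plus strand), a component of cytoplasmic ribonucleoprotein granules, reached 9.71, 1939 and 1226 in the Young libraries, 16.9 and 402 in the Aged ones, 1245 and 382 with unsorted cells, 1069, 3382 and 3984 with LRP1high cells, and 5.27 and 1.5 with LRP1low cells. The Young group thus overlapped every oocyte group except Aged + LRP1low in Lsm14b. Patl2 (ENSMUSG00000027233.4, chr2:122120108-122186189, minus strand), an oocyte protein that represses translation, stayed between 0 and 23.4 over the 12 libraries, with a median of 2.31, and its groups overlapped except for Aged + Unsorted, which lay above Aged + LRP1low.

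Of the translation genes, Cpeb1 (ENSMUSG00000025586.17, chr7:81347026-81455465, minus strand) encodes the protein that binds the cytoplasmic polyadenylation element of dormant messages. Its FPKM was 7.59, 31.1 and 665 in the Young libraries, 60.2 and 221 in the Aged ones, 580 and 337 with unsorted cells, 537, 680 and 737 with LRP1high cells, and 9.91 and 2.35 with LRP1low cells. The 3 Aged + LRP1high libraries were close to each other, at 651 ± 103 (SD, n = 3), whereas Young spread over 235 ± 373 (SD, n = 3). Paip1 (ENSMUSG00000025451.15, chr13:119428601-119458218, plus strand), a partner of the poly(A)-binding protein that stimulates translation, had the highest median of the members, with 38.3, 27238 and 6789 in the Young libraries, 484 and 1603 in the Aged ones, 21623 and 1454 with unsorted cells, 8411, 14483 and 17249 with LRP1high cells, and 8.27 and 24.0 with LRP1low cells. Paip1 alone made up 8.64% of all TPM, a unit that sums to the same total in each library, in oocyte library Young 2 and 5.34% in Aged + LRP1high 3. Pabpc1l (ENSMUSG00000054582.4, chr2:164025450-164050538, plus strand), the poly(A)-binding protein of oocytes and early embryos, took values of 0.433, 17.5 and 50.5 in the Young libraries, 12 and 34 in the Aged ones, 79.6 and 177 with unsorted cells, 94.7, 47.5 and 2.50 with LRP1high cells, and 6.81 and 4.46 with LRP1low cells. Its groups overlapped more than those of Cpeb1 and Paip1, since Aged + LRP1high 3 lay below both Aged + LRP1low libraries.

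Among the decay genes, Btg4 (ENSMUSG00000032056.10, chr9:51060901-51119875, plus strand), an adaptor that brings the deadenylase to maternal mRNA, had an FPKM of 3.94, 3097 and 913 in the Young libraries, 65.5 and 834 in the Aged ones, 5075 and 1157 with unsorted cells, 998, 2346 and 719 with LRP1high cells, and 11.6 and 13.9 with LRP1low cells. Cnot7 (ENSMUSG00000031601.16, chr8:40492540-40515847, minus strand), a catalytic deadenylase subunit, lay between 5.78 and 184, with 111, 66.5 and 27.8 in Aged + LRP1high and 6.62 and 5.78 in Aged + LRP1low oocytes. Both were low in Young 1, Aged 1 and Aged + LRP1low, as Zar1 and Cpeb1 were, and higher in Aged + Unsorted and Aged + LRP1high. In both genes the Aged + LRP1high values overlapped those of Young 2, Young 3 and Aged 2, which were 84.2, 73.2 and 68.7 for Cnot7. Zfp36l2 (ENSMUSG00000045817.8, chr17:84183931-84187947, minus strand), which binds AU-rich elements and promotes decay of its targets, had an FPKM of 6.08, 0 and 2.55 in the Young libraries, 2.61 and 2.40 in the Aged ones, 7.63 and 4.39 with unsorted cells, 0.535, 0.0517 and 0 with LRP1high cells, and 4.31 and 3.43 with LRP1low cells. The 3 Aged + LRP1high libraries were below both Aged + LRP1low libraries in Zfp36l2, the only member where this was so, as in 62.6% of all 28004 genes. In those Aged + LRP1low libraries Zfp36l2 lay below the median protein-coding gene, which had an FPKM of 5.22 and 3.81. Its Aged + Unsorted libraries were above both Aged ones. Exons of Cnot7 overlap those of Zdhhc2 and exons of Zfp36l2 those of AC132455.1 on the opposite strand, and how strand was used in counting is not given in the sources used here, so the values of this pair of members are uncertain by that overlap.

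The order of the members depended on the measure and on the libraries. By median FPKM over the 12 oocyte libraries the order was Paip1 (4196), Btg4 (873), Lsm14b (736), Cpeb1 (279), Zar1 (151), Cnot7 (67.6), Ybx2 (64.6), Pabpc1l (25.8), Zfp36l2 (2.58) and Patl2 (2.31). By coverage, the mean depth over all exons of a gene per gigabase of the library, Paip1 (2547) and Lsm14b (653) led and Btg4 (130) stood below Cpeb1 (207). In the 8 oocyte libraries rich in markers the median FPKM was 11447 for Paip1, 1235 for Lsm14b, 1078 for Btg4, 559 for Cpeb1, 302 for Zar1, 134 for Ybx2, 78.7 for Cnot7, 49.0 for Pabpc1l, 4.17 for Patl2 and 1.47 for Zfp36l2. Lsm14b then stood above Btg4, Ybx2 above Cnot7 and Patl2 above Zfp36l2. The ranges of neighbours in each of these orders overlap over the libraries. Together the 10 members made up 0.705% to 10.3% of all TPM in the 8 oocyte libraries rich in oocyte markers and 0.00891% to 0.142% in the 4 that were not. In the 2 Aged + LRP1low libraries the median protein-coding gene had an FPKM of 5.22 and 3.81, against 0 to 0.434 in the 8 libraries rich in markers, and 8 and 5 of the 10 members lay above that median. An FPKM of 1 was reached by 47920 and 38934 genes in these 2 libraries, against 3135 to 11916 in the 8 rich in markers.

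Aged + LRP1high oocytes had the higher values in all libraries for 7 of 10 members, and Aged + LRP1low oocytes for 1, Zfp36l2, with Patl2 and Pabpc1l overlapping. This is the difference on which the genes were selected, so it has no test, and over all 28004 genes the libraries were non-overlapping with Aged + LRP1high higher for 6.82% and with Aged + LRP1high lower for 62.6%. The differences of mean log2(FPKM + 1) were 9.72 for Paip1, 9.26 for Lsm14b, 6.74 for Cpeb1, 6.44 for Btg4, 6.01 for Ybx2, 5.66 for Zar1 and 3.06 for Cnot7. The median over the members was 5.84, beside -1.89 over all genes. The oocyte markers differed in the same way: 10 of 10 were higher in all Aged + LRP1high libraries, the median of their differences was 5.89, and their summed FPKM was 3507 to 9246 against 53.0 and 166, with 1 marker at 0 in Aged + LRP1low 2 and 0 elsewhere in these libraries. When each library was expressed relative to the mean of its oocyte markers, the median difference of the members was -0.07. The summed FPKM of the 6 stromal markers was 0.289 to 1.25 in Aged + LRP1high and 38.8 and 33.4 in Aged + LRP1low, and that of the 7 immune markers 0.0194 to 1.25 and 42.5 and 38.1. Their part in the difference was not tested.

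**Figure D2:**
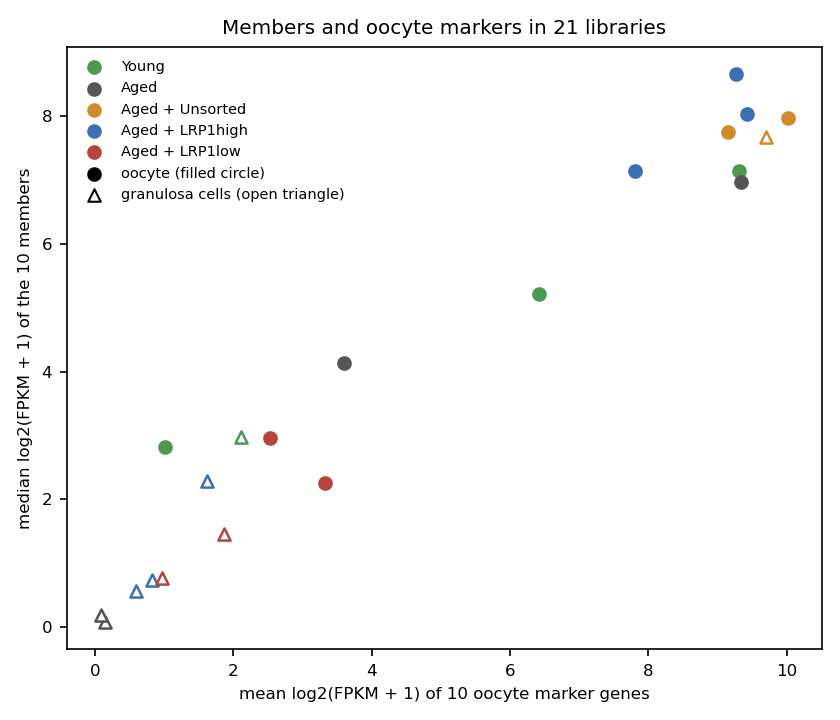
Each point is 1 library, with the mean log2(FPKM + 1) of 10 oocyte marker genes on the horizontal axis and the median log2(FPKM + 1) of the 10 members on the vertical axis. Filled circles are oocyte and open triangles granulosa cell libraries. The granulosa library of Aged + Unsorted lies among the oocyte libraries rich in markers, and 4 oocyte libraries lie at the lower left.

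Across the 12 oocyte libraries the members moved with each other and with the oocyte markers. The correlation of a member's log2(FPKM + 1) with the median of the other 9 was 0.96 for Zar1, 0.95 for Cpeb1, 0.91 for Ybx2, 0.89 for Lsm14b and Btg4, 0.87 for Cnot7, 0.85 for Paip1, 0.76 for Pabpc1l, 0.44 for Patl2 and -0.39 for Zfp36l2. The closest pairs were Ybx2 with Cpeb1 (r = 0.97) and Lsm14b with Paip1 (r = 0.96), and the most opposed was Lsm14b with Zfp36l2 (r = -0.60). The median of the members correlated with the oocyte markers at r = 0.96 and with the granulosa and cumulus markers at r = -0.79, and with the aligned gigabases at r = 0.63. In these correlations the points share library and depth, and they are descriptions over 12 libraries. Within the 8 libraries rich in markers the correlation with the other members was 0.81 for Ybx2, 0.80 for Cpeb1, 0.71 for Zar1, 0.46 for Pabpc1l, 0.35 for Patl2, 0.15 for Cnot7, 0.04 for Lsm14b, 0.01 for Btg4 and -0.11 for Paip1. These 9 were lower than over 12 libraries, while Zfp36l2 was at 0.20, higher and of the other sign. Of the 4058 other genes whose oocyte FPKM averaged 10 or more, the 10 most like the median of the members were Tubb4b (r = 0.99), Zar1l, Npm2, Rbpms2, Gadd45gip1, Rps4x, Abhd17b, Fbxw14, Uchl1 and Bmp15 (r = 0.97). Zar1l is the paralogue of Zar1, Npm2 the oocyte nucleoplasmin and Bmp15 an oocyte growth factor. An r over 0.8 was held by 913 of the 4058 genes, and the median r was 0.62, so such likeness was common in these libraries.

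No member passed the test between oocytes of Aged and Young mice. All 10 members overlapped between the 2 groups, where 11.7% of all genes did not overlap. The largest differences of log2(FPKM + 1) were 1.59 for Zar1 (SE 1.39, 95% interval -1.47 to 4.64) and -1.79 for Lsm14b (SE 2.00, interval -6.20 to 2.61), and 5 of 10 members were above 0 with a median of 0.11, beside 0.94 over all genes. In limma, 0 of 10 members were called at a fold over 1.5 and an adjusted p under 0.05 (0.0964% of all genes were), the lowest adjusted p being 0.596, and 0 of 10 passed an unadjusted p under 0.05 (8.65% of all genes did). The median difference was -1.04 without Aged 2, 1.13 without Aged 1 and -0.69 without Young 1, so its direction rested on single libraries. It was 0.27 without the 4 libraries low in oocyte markers. It also turned to -0.70 under quantile normalization and to -0.78 relative to the oocyte markers. The intervals span several log2 units, so the test does not show that the members are alike in both ages.

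**Figure D3:**
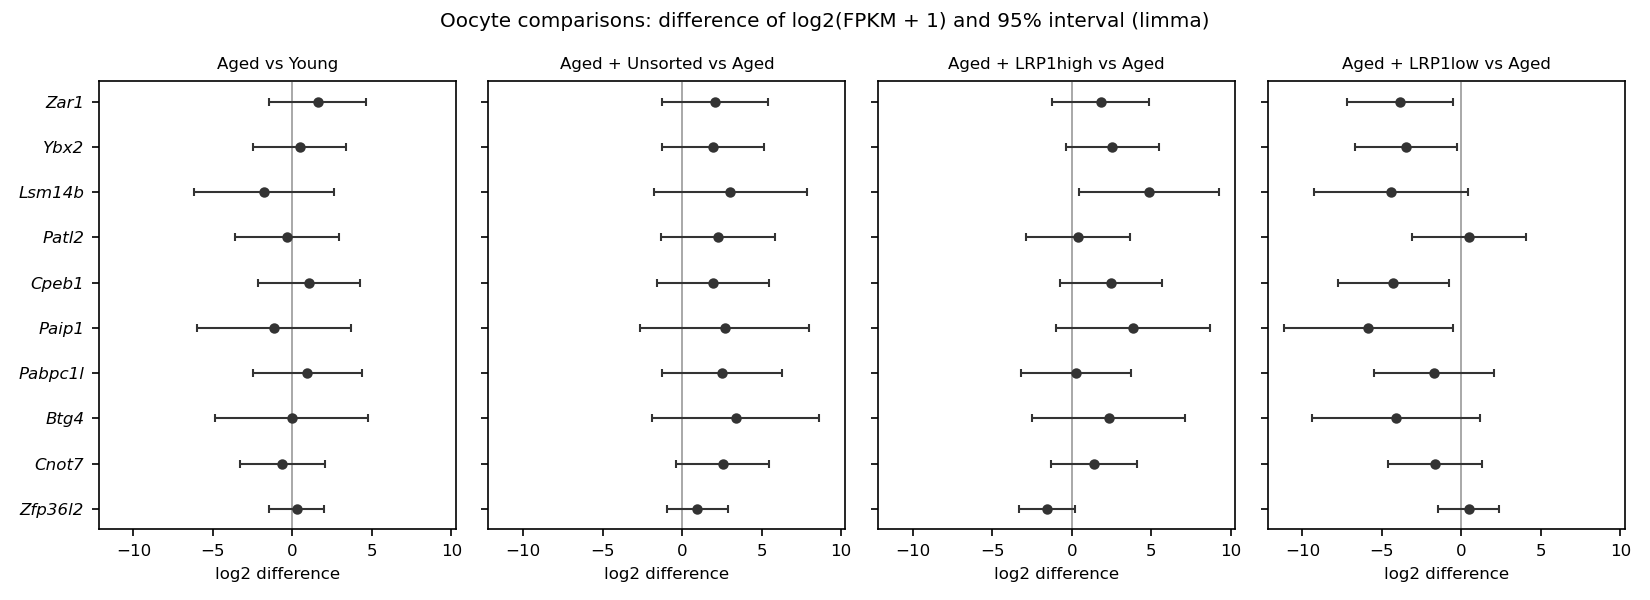
Points are the fitted differences of log2(FPKM + 1) of the 10 members in the 4 oocyte comparisons, and bars are 95% intervals from limma with 5 groups in 1 model. Members lie on both sides of 0 in Aged against Young, at or above 0.96 in Aged + Unsorted against Aged, and mostly below 0 in Aged + LRP1low against Aged.

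After unsorted cells, all 10 members had a higher mean in Aged + Unsorted than in Aged oocytes, with differences from 0.96 for Zfp36l2 to 3.36 for Btg4 and a median of 2.38, beside -0.86 over all genes. In 6 of 10 members, Ybx2, Cpeb1, Pabpc1l, Btg4, Cnot7 and Zfp36l2, both Aged + Unsorted libraries were above both Aged libraries, against 10.3% of all genes. None of these differences passed the test: 0 of 10 members and 0% of all genes were called by limma, the lowest adjusted p was 0.436 for Cnot7 (difference 2.54, SE 1.34, interval -0.40 to 5.48), and 0 of 10 passed an unadjusted p under 0.05 against 8.74% of all genes. Without Aged 1, the Aged library low in oocyte markers, the median difference was 1.04, and relative to the oocyte markers it was -0.73.

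After LRP1high cells, 9 of 10 members had a higher mean than in Aged oocytes, with 4.84 for Lsm14b (SE 2.00, interval 0.44 to 9.25) and 3.86 for Paip1 (SE 2.2, interval -0.98 to 8.70) as the largest, and Zfp36l2 was at -1.58 (SE 0.80). The median was 2.07, beside -1.05 over all genes, and in 4 of 10 members, Ybx2, Lsm14b, Cpeb1 and Paip1, all 3 libraries were above both Aged libraries, against 3.85% of all genes, while in Zfp36l2 they were below. Again 0 of 10 members were called in limma (0.771% of all genes were), with a lowest adjusted p of 0.370, and 1 member, Lsm14b, passed an unadjusted p under 0.05 (10.9% of all genes did). Lsm14b was higher, and of all 28004 genes 259 passed higher and 2784 lower. Without Aged 1 the median difference was 0.15, beside 0.02 over all genes, and relative to the oocyte markers it was -0.28. The LRP1high libraries belong to the difference on which the genes were selected too, so these counts are a description, and the comparisons with Aged share its 2 libraries.

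After LRP1low cells, 8 of 10 members had a lower mean than in Aged oocytes, from -1.66 for Cnot7 to -5.86 for Paip1 (SE 2.41, interval -11.2 to -0.55), while Patl2 was at 0.46 and Zfp36l2 at 0.47. The LRP1low libraries belong to the difference on which the genes were selected, so the counts that follow are a description. The median was -3.66, beside 0.68 over all genes (-1.94 without Aged 2 and -4.76 without Aged 1). Both LRP1low libraries were below both Aged libraries in 7 of 10 members, against 9.55% of all genes, and above them in Zfp36l2, for which no share over all genes was computed. With all 12 libraries 0 of 10 members were called in limma (3.17% of all genes were), the lowest adjusted p being 0.221 for Cpeb1, and 4 of 10, which were Zar1, Ybx2, Cpeb1 and Paip1, passed an unadjusted p under 0.05 (14.1% of all genes did). These 4 were lower, and of all 28004 genes 267 passed lower and 3695 higher. Paip1 was called without Young 1, and the share of all genes called in that fit is not given here. Leaving out Aged 1 left 1 Aged library, so no call is read from that fit. Relative to the oocyte markers the median was -0.12, and the 2 LRP1low libraries themselves are low in those markers, whose part in the difference was not tested.

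Oocytes were compared with granulosa cells within each of the 5 groups, to see how far each member belongs to the oocyte. In limma over all 21 libraries 5 of 10 members were called higher in oocytes and 0 lower, against 2.91% of all genes called higher in oocytes. These were Btg4 with a difference of 4.93 (SE 0.94, adjusted p = 0.0237), Cpeb1 with 3.67 (SE 0.72, adjusted p = 0.0246), Zar1 with 3.53 (SE 0.68, adjusted p = 0.0243), Ybx2 with 3.32 (SE 0.64, adjusted p = 0.0243) and Pabpc1l with 2.79 (SE 0.68, adjusted p = 0.0382). Lsm14b was at 3.50 (SE 0.97, adjusted p = 0.0595) and did not pass. Paip1 at 2.27, Cnot7 at 1.40, Patl2 at 0.88 and Zfp36l2 at -0.17 did not pass either, and their intervals included 0. The median over the members was 3.05, beside 0.62 over all genes. The members were selected on their FPKM in libraries that are part of this fit, so these calls and p-values are a description and no independent support. The count depended on the libraries: it was 0 without Aged + LRP1low 1 of the oocytes or without either Aged library of the granulosa cells, and 1 (Zar1) without Aged + Unsorted 1 of the oocytes or Aged + LRP1low 1 of the granulosa cells. With the replicate number as a block 0 of 10 members were called, and 0 with a trended and robust variance. The labels do not say whether oocytes and granulosa cells of the same number came from the same mice, and the fit took the libraries as independent. Without the 5 libraries whose oocyte markers went against their labels, which leaves 16 libraries and the Young, Aged and Aged + LRP1high groups, 8 of 10 members were called higher in oocytes, against 14.8% of all genes, and the median difference was 5.82. The largest were then Btg4 at 8.35, Lsm14b at 7.89 and Zar1 at 7.08, and Patl2 and Zfp36l2 were not called. The 5 libraries were left out by oocyte markers, which the members follow, so larger differences and more calls follow from that choice and are no further support.

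**Figure D4:**
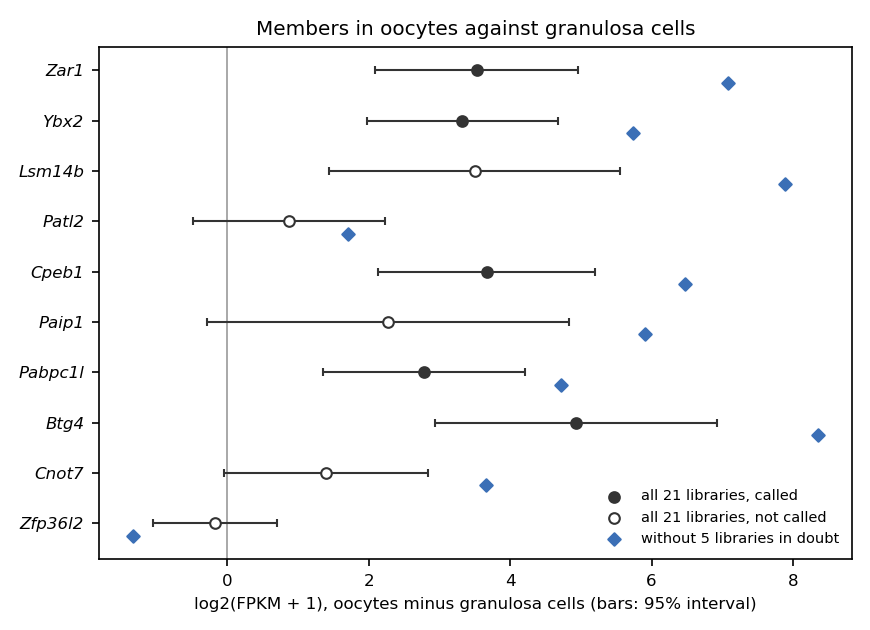
Points show the difference of log2(FPKM + 1) between oocytes and granulosa cells for each member, with 95% intervals from limma over all 21 libraries, filled where called. Diamonds are the differences without the 5 libraries whose oocyte markers went against their labels, and lie farther from 0 for all 10 members.

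The granulosa libraries showed which members were not limited to the oocyte. Leaving aside Aged + Unsorted 1, in which Zar1 was 586, Btg4 891 and Cpeb1 274, the granulosa FPKM of Zar1 stayed at or below 15.8, that of Ybx2 at or below 5.61 and that of Btg4 at or below 12.6. Paip1 was the exception, with 1159 in the Young library, 1.89 and 0.992 in the Aged ones, 1067 with unsorted cells, 1045, 11.4 and 7832 with LRP1high cells, and 1030 and 255 with LRP1low cells. In library Aged + LRP1high 3 Paip1 took 1.09% of all TPM while the oocyte markers had a median FPKM of 0.566 and Zar1 was at 0.491. Lsm14b reached 113 in the same library and 69.5 in Aged + LRP1low 1, Cnot7 reached 49.7 in Young and 84.7 in Aged + LRP1low 1, and Zfp36l2 had its highest value of all 21 libraries, 44.9, in Young granulosa cells. Luteal and thecal markers outweighed granulosa and cumulus markers in Aged + LRP1low 1 (summed FPKM 4619 against 88.4) and Aged + LRP1high 1 (1386 against 54.0). Which cells gave the members' values in those libraries was not tested. The 2 Aged granulosa libraries had Zar1, Ybx2 and Lsm14b listed at 0 and no member above 1.89, and 2734 and 2089 genes reached an FPKM of 1 in them.

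Against these Aged libraries, the members' differences in granulosa cells had medians of 1.03 in Aged + LRP1high and 1.23 in Aged + LRP1low, beside 0.89 and 0.31 over all genes. The libraries did not overlap, with the treated group higher, in 3 of 10 members for Aged + LRP1high and 5 of 10 for Aged + LRP1low, against 50.4% and 30.5% of all genes, which is below the background for Aged + LRP1high and above it for Aged + LRP1low. Zar1, Lsm14b and Paip1 were among them in both, and Patl2 was lower in both Aged + LRP1low libraries. In limma 0 of 10 members and 0% of all genes were called in either comparison. At an unadjusted p under 0.05, 1 member (Paip1, difference 7.60, SE 2.62) passed for Aged + LRP1high, against 8.51% of all genes, and 2 (Paip1, 7.74, SE 2.87, and Lsm14b, 4.59, SE 1.80) for Aged + LRP1low, against 3.79%. Those members were higher, and of all 13002 genes 1039 and 397 passed higher. The difference of Cnot7 in the second of these comparisons rested on 1 library, with an FPKM of 84.7 in Aged + LRP1low 1 and 1.45 in Aged + LRP1low 2. The difference between oocytes and granulosa cells in the same contrast was tested as an interaction, which called 0 of 10 members and 0% of all genes for Aged + LRP1high, and 0 of 10 and 0% for Aged + LRP1low. At an unadjusted p under 0.05 it passed 1 member for Aged + LRP1high, Zfp36l2, against 16.0% of all genes, and 6 for Aged + LRP1low, against 6.41%. For all of these the interaction was below 0, and of all 21767 genes 3445 and 538 passed below 0. The LRP1high and LRP1low oocyte libraries belong to the difference on which the genes were selected, so these interaction counts are a description. Both Aged + LRP1low oocyte libraries were also low in oocyte markers, whose part was not tested.

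Each member was set beside a related gene, to see which was the more abundant in oocytes. On the log2(FPKM + 1) scale, Cpeb1 was above Cpeb4 in 12 of 12 oocyte libraries, with a median difference of 4.42, Paip1 above Paip2, an inhibitor of the poly(A)-binding protein, in 11 (median 4.65), and Btg4 above Btg3 in 11 (median 8.94). Lsm14b was above Lsm14a in 10 (median 2.79) and Cnot7 above its fellow deadenylase Cnot8 in 10 (median 1.11). In the 9 granulosa libraries Paip1 was the higher in 7, Cpeb1 and Lsm14b in 6, Zar1 and Cnot7 in 5, Btg4 in 4. Zfp36l2 was the higher there in 3, Ybx2 in 2 and Patl2 in 1, so a higher member was not limited to oocytes. Pabpc1l was above the somatic Pabpc1 in 8 of 12 oocyte libraries (median 1.39) but in 1 of 9 granulosa libraries (median -2.39), where Pabpc1 reached 498. Zar1 against Zar1l had a median difference of -0.25 over the 12 libraries (-1.41 to 1.79) and of -0.95 in the 8 rich in markers. Zar1 was higher in 2 of the 8. Ybx2 against Ybx1 had 0.17 (-2.70 to 1.00), Patl2 against Patl1 -0.04 (-1.58 to 1.79) and Zfp36l2 against Zfp36l1 0.05 (-0.49 to 2.78). Ybx1, the Y-box protein of most cells, had an oocyte median FPKM of 83.8 beside 64.6 for Ybx2, and stood at 261 in Young granulosa cells, where Ybx2 was at 0.227. On log2(coverage per gigabase + 1), which is also scaled to length, the median differences over the 12 libraries were 6.76 for Btg4, 5.44 for Paip1, 4.21 for Cpeb1, 3.66 for Lsm14b, 1.83 for Pabpc1l and 1.15 for Cnot7. Zar1 was then lower than Zar1l in 11 of 12 libraries, with a median of -1.44.

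**Figure D5:**
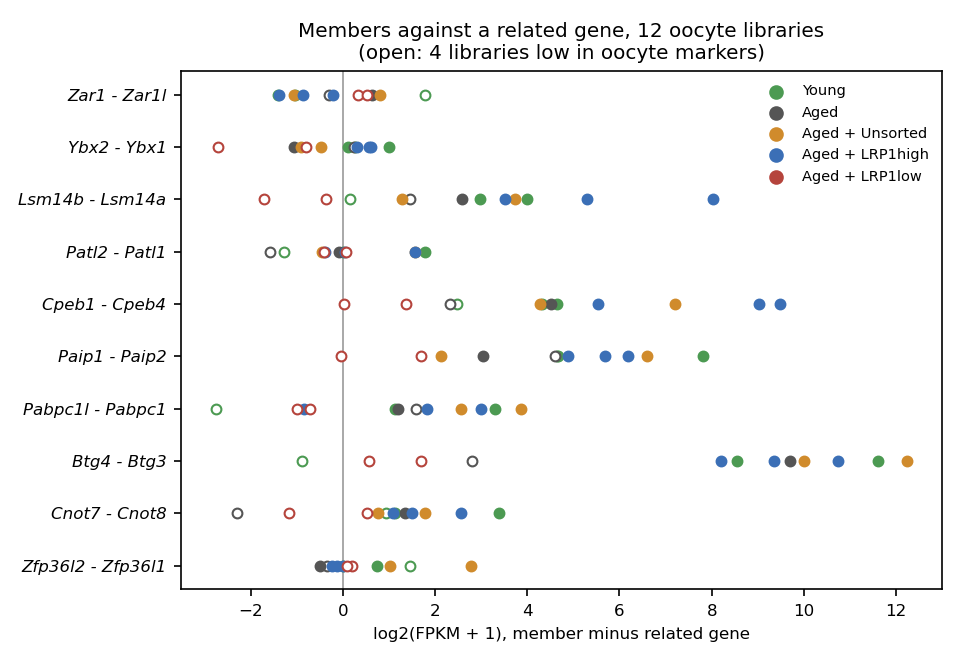
For each member, points give its log2(FPKM + 1) minus that of a related gene in the 12 oocyte libraries, coloured by group, with open points for the 4 libraries low in oocyte markers. Btg4, Cpeb1, Paip1, Lsm14b and Cnot7 lie to the right of 0 in every filled point, while Zar1, Ybx2, Patl2 and Zfp36l2 lie on both sides of 0.

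The wider pathway was described with 85 other genes, 17 of storage, 26 of translation and 42 of decay, of which 84 passed the filter on low values. In oocytes against granulosa cells 13 of 84 were called higher and 0 lower, against 2.91% of all genes called higher, with a median of 0.82 beside 0.62 over all genes. They were 6 of 17 storage genes, 2 of 26 translation genes and 5 of 41 decay genes tested. The pathway genes were chosen with earlier results of these data known, so these calls and p-values are a description and no independent support. In 2 of the 13 every oocyte library was above every granulosa library of its own group. One was Igf2bp2, an mRNA-binding protein, with a difference of 3.88 (SE 0.65, adjusted p = 0.0180), and the other Paip2b, a relative of Paip2, with 2.76 (SE 0.49, adjusted p = 0.0190). The share of all genes separated in this way was not computed. No member was separated in all 5 groups, while Lsm14b, Cpeb1, Pabpc1l and Btg4 were in 4. Igf2bp2 had an FPKM of 3.62, 158 and 298 in Young oocytes and 10.6 and 11.1 in Aged + LRP1low oocytes, and of 0.113 and 0.0783 in Aged granulosa cells. Without the 5 libraries 28 of 83 pathway genes were called higher and 1 lower, against 14.8% of all genes called higher. Those libraries were left out by their oocyte markers, so the larger count is no further support. Within oocytes 0 of 84 were called in each of the 4 comparisons by limma. At an unadjusted p under 0.05, 6 were higher and 0 lower in Aged against Young (8.65% of all genes passed), 3 and 3 in Aged + Unsorted against Aged (8.74%), 3 and 6 in Aged + LRP1high against Aged (10.9%), and 2 and 1 in Aged + LRP1low against Aged (14.1%). Each count lies below that share of 84 genes. The median differences of the pathway genes were 0.56, 0.88, 0.23 and -0.58 in that order, smaller in size than those of the members in the 3 comparisons with transplanted groups. In granulosa cells 0 of 84 were called in both comparisons with Aged, with 13 and 4 higher and 0 lower at an unadjusted p under 0.05 (8.51% and 3.79% of all genes passed).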

How the data were processed

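RNA of 12 oocyte and 9 granulosa cell libraries was sequenced. The labels name a stranded KAPA kit and poly(A) RNA, the methods of the study name Smart-seq2, and which applies was not settled. Per the labels, the authors aligned with HISAT2 2.2.1 and computed values with StringTie 1.3.3b. They name mm9, but 54577 of 55335 identifiers have the coordinates of GENCODE vM21 (GRCm38), which are given here. The authors deposited FPKM, TPM and coverage per gene. The deposited FPKM was analysed, the deposited TPM gave shares, and the deposited coverage divided by the aligned gigabases of the library (its median ratio to FPKM over 21693 single-exon genes) was an alternative. Identifiers listed more than once, 4 to 21 per file, were added up.

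Groups were taken from titles. Genes were tested where their FPKM, averaged over the fitted libraries, reached 1, which left 28004 in oocytes, 13002 in granulosa cells and 21767 in both. log2(FPKM + 1) was modelled by limma 3.58.1 (R 4.3.3), with the 5 groups of one cell type together or the 10 groups of both. The pseudocount of 1 understates changes of low genes. Benjamini-Hochberg adjustment ran over all genes, and genes were called at a fold over 1.5 and an adjusted p under 0.05, the criteria of the study. P-values measure the spread between libraries, which may be technical. The fit was tested on simulated data. Other work used Python 3.11.15, pandas 2.3.3, numpy 2.4.6 and matplotlib 3.10.9.

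The members, related genes, pathway genes and marker lists were chosen with earlier results of these data known. Named were the 10 members, 10 related genes, the 10 genes most like the median of the members, and in each test up to 5 called pathway genes per direction with the largest change and no overlap between groups. For oocytes against granulosa cells, overlap was read within each of the 5 groups. A pair of alternatives were added after seeing the data: coverage per gigabase, and leaving out 4 oocyte libraries with a median oocyte marker FPKM under 20 and 1 granulosa library rich in them. The marker lists hold 10 oocyte, 10 granulosa and cumulus, 6 luteal and thecal, 4 endothelial, 7 immune, 6 stromal and 5 red blood cell genes.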

Additional observations from a re-analysis of the deposited data

Results flagged for a closer look

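In 3 members every Aged + LRP1low oocyte library was below both Aged oocyte libraries while every Aged + LRP1low granulosa library was above both Aged granulosa libraries. Taken separately, 9.55% of all genes were lower in this way in oocytes and 30.5% higher in granulosa cells. The share of genes with both was not computed. The difference between the 2 cell types in this contrast was -13.6 on the log2 scale for Paip1 (SE 3.65), -9.01 for Lsm14b (SE 2.94) and -6.33 for Zar1 (SE 2.05). The interaction test of limma did not pass for any of them, with adjusted p of 0.342, 0.500 and 0.496. In the Aged granulosa libraries Lsm14b and Zar1 were listed at 0 and Paip1 at 1.89 and 0.992, and both Aged + LRP1low oocyte libraries were low in oocyte markers, whose part was not tested. Those oocyte libraries also belong to the difference on which the genes were selected, so the values given here are a description.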

How the results depend on the processing

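With 2 to 3 oocyte libraries a group, the standard errors of the members' differences between oocyte groups ran from 0.80 to 2.41 log2 units. The counting error is unknown, since no read counts were used, and 4 of 12 oocyte libraries and 1 granulosa library went against their labels in oocyte markers, while granulosa libraries low in granulosa markers were kept. The comparisons of treatment within a cell type called 0 of 10 members under every setting other than leaving out 1 library and a p without adjustment, which gave 1 and 4 for Aged + LRP1high and Aged + LRP1low oocytes and 1 and 2 for the granulosa cells in that order. Where leaving out 1 library kept at least 2 in each compared group, 0 to 1 members were called for Aged + LRP1low against Aged in oocytes and 0 in granulosa cells. For oocytes against granulosa cells, 5 members were called, and 2 under quantile normalization, 0 with a trended and robust variance, 0 with the replicate number as a block, 3 with coverage per gigabase, 8 without the 5 libraries, 0 to 6 without 1 library, and 4 to 6 under a pseudocount of 0.1, TPM, no filter, a filter at a mean FPKM of 10 and a p without adjustment. For the difference between cell types in the response to LRP1low cells, 0 members were called, and 1 with no filter (Paip1), 2 under quantile normalization (Zar1 and Lsm14b) and 6 with a p without adjustment, and for LRP1high cells 1 with a p without adjustment. The median difference of the members between Aged + LRP1high and Aged + LRP1low oocytes was 6.58 with TPM, -0.067 relative to the oocyte markers and 4.91 to 6.24 without 1 library. The correlation of the members' median with the oocyte markers was 0.82 in the 8 libraries rich in markers. The cause was not tested. Quantile normalization brought the median difference of all genes to between -0.05 and 0.05, and the members' median was then 2.01, 1.60 and -3.45 for unsorted, LRP1high and LRP1low cells against Aged oocytes. The call counts over all genes moved widely. Aged against Young oocytes had 27, with 0 (TPM) to 918 (without the 5 libraries) under the alternatives, Aged + Unsorted 0, with up to 889 (without the 5 libraries), Aged + LRP1high 216, with 0 (pseudocount of 0.1) to 1110 (no filter), and Aged + LRP1low 887, with 0 (pseudocount of 0.1) to 11806 (no filter). Granulosa cells had 0 with up to 48 for LRP1high and 9 for LRP1low under quantile normalization, oocytes against granulosa cells 654 with 0 (trended variance) to 2339 (without the 5 libraries), and the differences between cell types 0 with up to 1118 and 7287 (no filter). These ranges leave out the p without adjustment. Deviations of same-numbered libraries from their group means had a median correlation of 0.010 (-0.436 to 0.441) over 21 oocyte pairs and 0.009 (-0.076 to 0.256) over 6 granulosa pairs. Over 7 pairs of an oocyte and a granulosa library it was -0.033 (-0.061 to 0.011). In a group of 2 libraries the deviations are exact opposites, so these correlations cannot decide whether the numbers pair the libraries. The replicate block left 80 genes called between the cell types and 0 members. Aged + LRP1low oocytes could not be compared without the libraries in doubt, since both are among them.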
